A study of Mus musculus with 8 samples.

Results

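UTP-treated cADSC from WT mice were compared with untreated WT cADSC across every gene above 0.5 CPM (counts per 1000000 counts of the library) in at least 2 of the 8 libraries of the experiment, which left 17529 of the 52636 genes in the table. cADSC are the plastic-adherent stromal cells grown from cardiac adipose tissue of adult male and female mice, here kept in DMEM with 10% serum. The UTP-treated group was given UTP at 100 µM each day over 7 days, the untreated group got none, and both were WT. Each group has 2 libraries, each made from a pool of RNA, so that the replicate is a pool (n = 2 per group) and p-values measure the spread between pools. The methods name 2 pools from 2 cultures per condition, and the wording does not settle whether each pool had its own cultures. In each pair of values below the first is pool 1 and the second is pool 2. The other 4 libraries, labelled P2Y2 KO with and without UTP, entered the model for their spread. The labels give the strain of all 8 as C57BL/6J, and the methods name the P2Y2 KO mice CD1/C57BL/6J. In them P2ry2, which encodes the P2Y2 receptor, was still read at 13.7 and 15 CPM with UTP and at 14 and 15.5 CPM untreated. That was below every WT library (16.4 and 16.4 CPM with UTP and 18.1 and 17.3 CPM untreated) by far less than 2-fold, and these libraries are therefore named by their label.

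The libraries were estimated to hold 18600000 to 22020000 counts each before the authors scaled them to a common total. A value of 10 in the scaled table equals 0.5 CPM, and a count of 0 allows up to 0.15 CPM, for counting error only. Stromal markers were high in all 4 WT libraries, with Pdgfra at 640 and 612 CPM with UTP and 536 and 512 CPM untreated, and Thy1 at 116 and 122 CPM with UTP and 153 and 121 CPM untreated. Macrophage genes were present as well, and 32 of them, of which 31 were tested, summed to 2294 and 2170 CPM with UTP and to 5163 and 3685 CPM untreated. Defining genes of T and NK cells were at or near 0 (Nkg7 at 0 in every WT library, Cd3e at no more than 0.1 CPM). Dpp4, the gene of CD26 that the study's cytometry took as a fibroblast marker, was at 45.1 and 45.8 CPM with UTP and 21.5 and 39.6 CPM untreated. The first untreated pool stood apart. It had no reads of the Y-linked Ddx3y, and its epithelial genes summed to 53.7 CPM, against 242 and 242 CPM with UTP and 197 CPM in the second untreated pool. Between the untreated pools the level of 215 genes of at least 1 CPM differed by over 2-fold, while between the UTP pools it did so for 71. Every result below is therefore given against each untreated pool where the pools decide it.

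UTP is an extracellular nucleotide that is released by stressed and dying cells. It activates G protein-coupled P2Y receptors, which raise intracellular calcium through phospholipase C, and enzymes on the cell surface degrade it to UDP, the ligand of P2Y6, and on to uridine. Stromal cells from fat depots secrete chemokines, matrix and growth factors, and cultures of them often hold macrophages, which depend on signals through the CSF1 receptor and on the transcription factor PU.1.

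By edgeR's quasi-likelihood test with Benjamini-Hochberg adjustment, 25 genes were higher with UTP (0.143% of the genes tested) and 189 were lower (1.08%). The changes called ran from 0.29 to 2.65 on the log2 scale among the genes that rose and from -0.35 to -3.19 among those that fell. At an unadjusted p under 0.05 the counts were nearly even, with 1519 genes higher (8.67%) and 1590 lower (9.07%). All 214 called genes lay on the same side of both untreated pools in both UTP pools. Over all genes tested, both UTP pools lay above both untreated pools for 4635 genes (26.4%) and below both for 4469 (25.5%). At least 2-fold in all 4 ratios of a UTP pool to an untreated pool were 5 of the 25 genes that rose and 74 of the 189 that fell, where the same bound was passed by 32 (0.183%) and 118 (0.673%) of all genes tested.

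The size of a fall depended on the untreated pool. Of the 189 genes that fell, 187 were higher in the first untreated pool than in the second, as were 8458 of all genes tested (48.3%). Their median ratio of UTP to untreated was 0.333 against the first pool and 0.508 against the second, and 162 were below 0.5 against the first and 89 against the second. The genes that rose had medians of 1.62 and 1.44 against the first and second pool. Since the pools of no called gene overlapped, leaving out 1 WT pool could hardly change a direction, and a kept direction is no further evidence. Without the first untreated pool 106 of the 189 and 7 of the 25 still passed edgeR's test, and all kept their direction. Without the first UTP pool 0 of the 189 and 1 of the 25 still passed, and without the second 0 and 2, while every direction was kept there too. The libraries labelled P2Y2 KO carried part of the error estimate, and the whole count of 214 was 12 without their first untreated pool and 77 to 83 without any of the other 3, while it was 2406 without the second untreated WT pool. With all libraries 3109 genes had an unadjusted p under 0.05, and DESeq2 called 183 of the 189 and 22 of the 25.

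**Figure D1:**
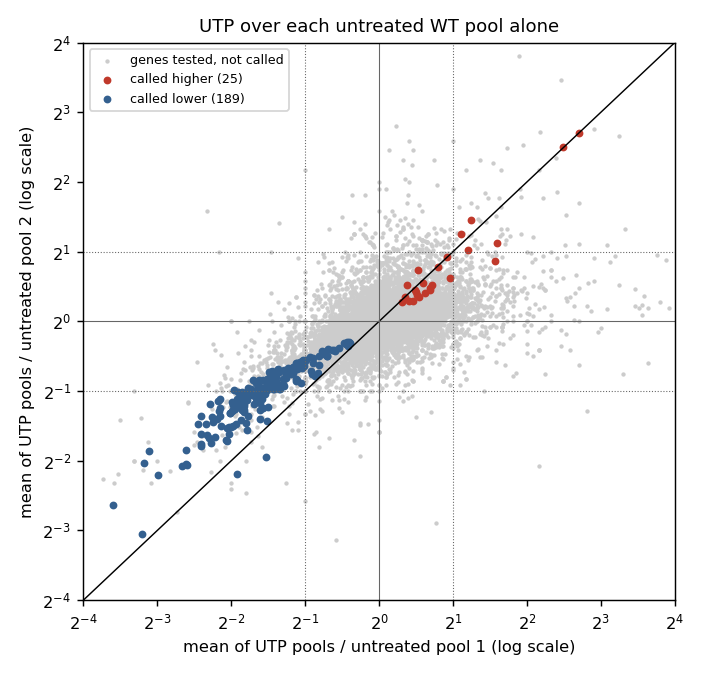
Mean CPM of both UTP pools over the first untreated pool (x axis) and over the second (y axis), on log scales, for genes tested in WT cADSC; 55 genes that were not called lie outside 0.0625 to 16 or at 0 and are not drawn. Of the 189 genes called lower, 187 lie above the diagonal, nearer to 1 against the second pool (median 0.508) than against the first (0.333).

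The genes that rose included myeloid genes, secreted factors, receptors for vasoactive ligands and genes best known from neurons. Clec4n, which encodes the fungal-sensing lectin dectin-2 of myeloid cells, had 50.6 and 42.6 CPM with UTP, against 8.30 and 8.25 CPM untreated. Its log2 fold change was 2.49 (standard error 0.15, adjusted p = 0.00147), and of the called genes named here it alone passed without any 1 of the 8 libraries. Il1rn, the interleukin-1 receptor antagonist, had 86.8 and 75.4 CPM with UTP, against 34.3 and 29.6 CPM untreated (log2 fold change 1.35 ± 0.09 SE, adjusted p = 0.0022). Its pools were close within each group, and only leaving out the first UTP pool ended the call. Saa3, an acute phase apolipoprotein of adipose tissue, had 138 and 145 CPM with UTP, against 46.8 and 64.4 CPM untreated (log2 fold change 1.35 ± 0.20 SE, adjusted p = 0.0288). Ccl5, a chemokine for T cells and monocytes, had 19 and 20 scaled counts with UTP, against 3 and 3 untreated (log2 fold change 2.65 ± 0.39 SE, adjusted p = 0.0288). That is under the 1 CPM set for named genes, and it is given because it was seen to be the steepest rise among the called genes. Only libraries with UTP brought Ccl5 above the 0.5 CPM minimum, and 3 counts equal the 0.15 CPM that a count of 0 allows. The size of the rise thus rests on few reads, and in limma with 1 CPM added the log2 fold change was 0.78.

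Further myeloid genes rose while most macrophage genes fell. Siglecf, a sialic acid-binding receptor of eosinophils and alveolar macrophages, had 3.55 and 3.35 CPM with UTP, against 1.60 and 1.45 CPM untreated (log2 fold change 1.18 ± 0.18 SE, adjusted p = 0.0305). Acp5, the tartrate-resistant acid phosphatase of osteoclasts, had 18.9 and 18.6 CPM with UTP, against 6.35 and 10.3 CPM untreated (1.17 ± 0.20 SE, adjusted p = 0.0389), and its fold was smaller against the second untreated pool. Atp6v0d2, the V-ATPase subunit of osteoclasts and some macrophages, had 39.9 and 35.5 CPM with UTP, against 19.8 and 19.99 CPM untreated (log2 fold change 0.92 ± 0.10 SE, adjusted p = 0.0164). Itgax, the integrin chain CD11c of dendritic cells and macrophages, had 61.2 and 55.1 CPM with UTP, against 40.3 and 35.0 CPM untreated (log2 fold change 0.63 ± 0.09 SE, adjusted p = 0.0283). In all 4 of these genes no UTP pool overlapped an untreated pool, which held for every called gene and was required by the rule for naming genes. The gene next to Itgax moved the other way: Itgam, the integrin chain CD11b, lies 11055 bases away on chromosome 7 and as ENSMUSG00000030786 had 103 and 92.3 CPM with UTP, against 181 and 148 CPM untreated (log2 fold change -0.75 ± 0.14 SE, adjusted p = 0.0487). An overlapping model of Itgam, ENSMUSG00000108596, whose reads may be shared with the first, had -0.73 and missed the test (adjusted p = 0.0514).

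Among secreted and receptor genes of stromal or vascular cells, Apln, the apelin peptide that acts on vessels and heart muscle, had 31.9 and 29.8 CPM with UTP, against 15.9 and 20.1 CPM untreated (log2 fold change 0.78 ± 0.10 SE, adjusted p = 0.0267). Draxin, a secreted inhibitor of axon growth and of Wnt signalling, had 26.6 and 19.5 CPM with UTP, against 13.2 and 13.4 CPM untreated (0.79 ± 0.14 SE, adjusted p = 0.0443). Ednrb, the endothelin B receptor, had 10.8 and 9.45 CPM with UTP, against 4.40 and 5.00 CPM untreated (log2 fold change 1.11 ± 0.19 SE, adjusted p = 0.0419). In these 3 genes, as in every called gene, both UTP pools stood clear of the untreated pools, and the UTP pools of Draxin were the widest apart. Ptgir, the prostacyclin receptor, had 29.0 and 27.1 CPM with UTP, against 17.3 and 20.5 CPM untreated (log2 fold change 0.57 ± 0.10 SE, adjusted p = 0.043). Adgra2, an adhesion G protein-coupled receptor that acts with Wnt7 in brain vessels, had 267 and 255 CPM with UTP, against 196 and 212 CPM untreated (log2 fold change 0.36 ± 0.07 SE, adjusted p = 0.0487). Srpx2, a secreted protein with sushi repeats, had the smallest rise called, with 93.3 and 87.1 CPM with UTP, against 72.8 and 74.7 CPM untreated (log2 fold change 0.29 ± 0.05 SE, adjusted p = 0.0497).

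The remaining genes that rose had log2 fold changes of 0.35 to 0.62, and in none of them did the pools overlap, as in every called gene. Dio3, the deiodinase that inactivates thyroid hormone, had 47.1 and 45.4 CPM with UTP, against 28.2 and 32.0 CPM untreated (log2 fold change 0.62 ± 0.10 SE, adjusted p = 0.0373). Aldh1l1, an enzyme of folate metabolism, had 29.3 and 31.1 CPM with UTP, against 20.04 and 20.6 CPM untreated (0.57 ± 0.07 SE, adjusted p = 0.0267). The pools of Aldh1l1 lay close together in both groups. Rcan1, an inhibitor of calcineurin that is itself induced by calcium and NFAT, had 48.8 and 47.9 CPM with UTP, against 38.1 and 37.8 CPM untreated (0.35 ± 0.06 SE, adjusted p = 0.0475). Slfn5, a member of the interferon-inducible Schlafen family, had 210 and 212 CPM with UTP, against 162 and 146 CPM untreated (0.45 ± 0.07 SE, adjusted p = 0.0299). Its antisense partner Slfn5os overlaps it and rose by a like amount (log2 fold change 0.46); the strand setting of the counting is not given in the sources used here, so reads of the pair may not be told apart. Ly6a, the progenitor surface marker Sca-1, had 143 and 149 CPM with UTP, against 102 and 112 CPM untreated (0.45 ± 0.07 SE, adjusted p = 0.0345) and was the only one of 18 mesenchymal markers called. Genes best known from neurons and cell contacts completed the set, namely Nlgn2 (neuroligin, 0.47), Pcdh19 (a protocadherin, 0.58), Clmp (a tight junction protein, 0.51), Tubb4a (a brain tubulin, 0.45) and Nsg1 (an endosomal protein of neurons, 0.38), each given as a log2 fold change.

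**Figure D2:**
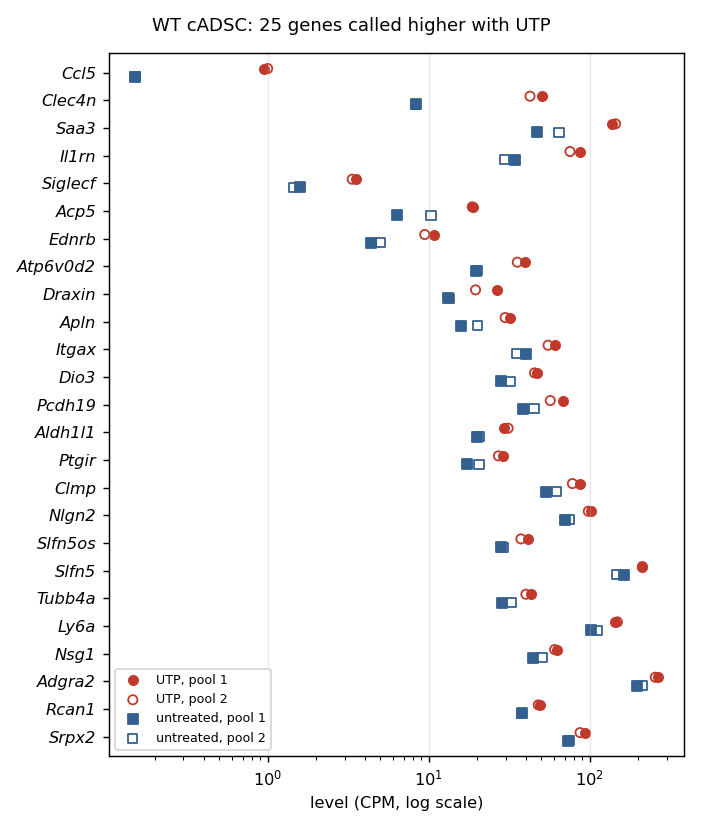
Level in CPM (log x axis) of the 25 genes called higher with UTP in WT cADSC, in each UTP pool (circles) and each untreated pool (squares), ordered by log2 fold change. In every gene, as in all called genes, both UTP pools lie clear of both untreated pools, here to the right, from Ccl5 (0.95 and 1.00 CPM with UTP, against 0.15 and 0.15 CPM untreated) to Srpx2.

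Leukocyte genes were among those that fell. Of the 189, 19 belong to the list of macrophage identity genes (31 tested, median log2 fold change -1.31, against 0.01 over all genes tested). Over all genes tested 1.08% were called lower. In any of the 14 leukocyte lists, which share members, were 51 of the 189, and the number tested in these lists together is not given here. Neither in the macrophage list nor in the study's own table of selected genes were 162, which include other leukocyte genes. Of the 31 macrophage genes 29 lay below both untreated pools, against 25.5% of all genes tested. In bulk RNA a lower number of macrophages and less RNA of these genes per macrophage cannot be told apart. The part of this summed fall in the other genes below was not tested. Of the list of leukocyte signalling genes many fell, with 17 of 29 called lower and 0 called higher (median log2 fold change -1.12), and the median was -0.76 without the first untreated pool and -1.44 without the second. Inpp5d, the lipid phosphatase SHIP1, had 20.6 and 19.9 CPM with UTP, against 79.8 and 48.8 CPM untreated (log2 fold change -1.67 ± 0.22 SE, adjusted p = 0.0267). Fyb, an adaptor of integrin activation, had 15.9 and 14.7 CPM with UTP, against 57.7 and 35.0 CPM untreated. Pik3ap1, which links Toll-like receptors to PI 3-kinase, fell to 18.0 and 17.9 CPM with UTP, against 57.2 and 38.6 CPM untreated. In each of these genes the first untreated pool was the higher one, and both untreated pools lay more than 2-fold above both UTP pools.

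The genes with the largest falls outside that macrophage list and that table were chosen by size. Cd244, a receptor of the SLAM family on NK and myeloid cells, had 0.5 and 0.35 CPM with UTP, against 3.95 and 3.50 CPM untreated (log2 fold change -3.11 ± 0.38 SE, adjusted p = 0.0267). Ms4a6b, a tetraspanning protein of myeloid and T cells, had 0.9 and 0.75 CPM with UTP, against 6.55 and 3.80 CPM untreated (-2.64 ± 0.32 SE, adjusted p = 0.0267). Fcna, the plasma lectin ficolin A made by macrophages, had 7.10 and 6.05 CPM with UTP, against 31.9 and 22.1 CPM untreated (-2.04 ± 0.19 SE, adjusted p = 0.00902). Smagp, a small transmembrane glycoprotein of cell contacts, had 1.3 and 1.5 CPM with UTP, against 7.4 and 4.85 CPM untreated (-2.12 ± 0.26 SE, adjusted p = 0.0267). In each of these 4 the higher UTP pool stayed below the lower untreated pool by more than 2-fold. Nxpe5, a gene of unclear role, was the 1 gene of the 15 in which the second untreated pool was the higher (3.20 and 2.80 CPM with UTP, against 11.4 and 13.7 CPM untreated; log2 fold change -2.06 ± 0.24 SE, adjusted p = 0.0267). Cadm1, an adhesion molecule of the immunoglobulin superfamily, had 8.80 and 7.95 CPM with UTP, against 45.6 and 23.3 CPM untreated, and its log2 fold change of -2.04 was -1.47 without the first untreated pool. The others were Fcrls, C5ar2, Cd300lf, Lilra5, 1810011H11Rik, Ctla2b, Gm14221, Nfatc2 and Hpgds, with log2 fold changes of -1.90 (Gm14221) to -2.61 (Fcrls). Nfatc2, the calcineurin-activated transcription factor NFAT1, had 3.20 and 2.40 CPM with UTP, against 13.8 and 8.90 CPM untreated (-2.02 ± 0.27 SE, adjusted p = 0.0267), opposite in direction to the calcineurin inhibitor Rcan1.

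Receptors of innate recognition fell in part. Of 7 Fc receptor genes tested 5 were called lower, among them Fcer1g, the shared signalling chain, with 30.3 and 27.4 CPM with UTP, against 101 and 62.2 CPM untreated (log2 fold change -1.50 ± 0.20 SE, adjusted p = 0.0267). Of 15 Toll-like receptor and adaptor genes 3 were called lower by edgeR and by limma and 4 by DESeq2. The fall was not confined to the calls, as 8 were lower at an unadjusted p under 0.05 in edgeR. Below both untreated pools lay 11, against 25.5% of all genes tested. The 3 that edgeR called encode endosomal sensors of nucleic acids. Tlr7, which binds single-stranded RNA, had 11.2 and 10.8 CPM with UTP, against 44.7 and 27.3 CPM untreated. Tlr8 had 6.50 and 7.65 CPM against 20.2 and 13.7 CPM, and Tlr13, a sensor of bacterial ribosomal RNA in mice, had 34.5 and 32.0 CPM against 104 and 64.0 CPM (log2 fold changes -1.71, -1.26 and -1.34, in the order named). Without the first untreated pool they were -1.30, -0.95 and -0.93. All 3 genes lie on the X chromosome, and with Xist as a covariate edgeR still called them (adjusted p = 0.0349, 0.0424 and 0.0409). Nlrp3, the inflammasome sensor, had 6.60 and 4.90 CPM with UTP, against 21.7 and 12.4 CPM untreated (log2 fold change -1.57, adjusted p = 0.0389). Both anaphylatoxin C5a receptors fell, C5ar1 to 27.8 and 25.9 CPM with UTP, against 136 and 74.2 CPM untreated, and C5ar2 to 0.55 and 0.25 CPM, against 2.45 and 1.65 CPM. Il10ra, the ligand-binding chain of the interleukin-10 receptor, had 4.95 and 3.95 CPM with UTP, against 12.6 and 10.4 CPM untreated (-1.37 ± 0.19 SE, adjusted p = 0.0267). Ccl4 (5.05 and 4.30 CPM with UTP, against 16.5 and 10.8 CPM untreated) and Ccl12 (1.90 and 1.75 CPM, against 11.6 and 7.70 CPM) fell while Ccl5 rose.

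A few genes of nucleotide sensing and handling were among those that fell. P2ry6, the UDP receptor, had 11.6 and 9.60 CPM with UTP, against 34.4 and 24.1 CPM untreated (log2 fold change -1.46 ± 0.18 SE, adjusted p = 0.0267), the only call by edgeR among 12 P2 receptor genes tested, where limma called 2 lower and DESeq2 4. P2ry2 itself had 16.4 and 16.4 CPM with UTP, against 18.1 and 17.3 CPM untreated (log2 fold change -0.11 ± 0.10 SE, adjusted p = 0.591). P2ry12 and P2ry13, ADP receptors of microglia and macrophages, and P2rx7, the ATP-gated channel, had log2 fold changes of -2.99, -2.06 and -0.59 and missed edgeR's test (adjusted p = 0.0662, 0.0507 and 0.0563). DESeq2 called all 3 lower (adjusted p = 0.000347, 0.0166 and 0.00399) and limma only P2ry13 (adjusted p = 0.0424). Slc28a2, a concentrative nucleoside transporter, had 3.10 and 2.60 CPM with UTP, against 8.75 and 6.85 CPM untreated (-1.45 ± 0.22 SE, adjusted p = 0.0288). Dck, the deoxycytidine kinase of nucleoside salvage, had 21.4 and 22 CPM with UTP, against 33.8 and 28.9 CPM untreated (-0.53 ± 0.10 SE, adjusted p = 0.0492). These were the only calls by edgeR among 25 pyrimidine genes tested, where limma called 2 lower and DESeq2 3. Of 16 ectonucleotidase and adenosine receptor genes tested, edgeR, limma and DESeq2 called 0 (3 higher and 4 lower in edgeR at an unadjusted p under 0.05). Above both untreated pools lay 4 of them and below both 5, against 26.4% and 25.5% of all genes tested, and their median log2 fold change was 0.05.

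Over all members tested the median log2 fold change was 0.02 for ion channel genes and -0.17 for transporter genes. Of all 214 genes called by edgeR 189 fell, and so did every called member of the ion channel and transporter lists. These were 3 of 32 channel genes, all of potassium channels (limma called 4 lower and DESeq2 6): Kcnk13 (4.0 and 3.35 CPM with UTP, against 13 and 8.85 CPM untreated) and Kcnk6 (7.25 and 6.85 CPM, against 15.3 and 12.8 CPM), which carry background potassium current, and the subunit gene Kcnab2 (19.4 and 17.9 CPM, against 46.1 and 33.1 CPM). Their log2 fold changes were -1.57, -0.99 and -1.08 (adjusted p = 0.0288, 0.0305 and 0.0305). The channel genes Kcnn4 and Trpm2 had log2 fold changes of -1.33 and -1.50 and missed edgeR's test (adjusted p = 0.0507 and 0.053), while DESeq2 called both (adjusted p = 1.6e-06 and 0.00948) and limma only Kcnn4 (adjusted p = 0.0487). Of 26 transporter genes, Slc7a8 (45.7 and 38.1 CPM with UTP, against 146 and 87.5 CPM untreated) and Slc7a7 (8.20 and 8.30 CPM, against 15.6 and 13.4 CPM), light chains of amino acid exchangers, were called lower by edgeR, where limma also called 2 and DESeq2 6.

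Some genes of lipid mediators were among the calls, and they were picked after their values were seen, with no count of such genes that were not called. Hpgds, the hematopoietic prostaglandin D synthase, had 9.60 and 9.45 CPM with UTP, against 50.7 and 24.3 CPM untreated (log2 fold change -1.98 ± 0.32 SE, adjusted p = 0.0372). Hpgd, which inactivates prostaglandins, had 4.55 and 4.10 CPM with UTP, against 19.3 and 9.35 CPM untreated (-1.73 ± 0.31 SE, adjusted p = 0.0459). Alox5ap, the activating protein of leukotriene synthesis, Tbxas1, the thromboxane synthase, and Alox15, a lipoxygenase, also fell (log2 fold changes -1.58, -1.12 and -1.74), whereas the prostacyclin receptor gene Ptgir rose. Plin2, the coat protein of lipid droplets, had 131 and 132 CPM with UTP, against 221 and 183 CPM untreated (log2 fold change -0.61 ± 0.10 SE, adjusted p = 0.0321). Trem2, a lipid-sensing receptor of macrophages, had 36.7 and 33.6 CPM with UTP, against 76.0 and 55.1 CPM untreated.

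Of the called genes with most reads, Lcp1, the leukocyte actin-bundling protein L-plastin, had 237 and 214 CPM with UTP, against 703 and 424 CPM untreated (log2 fold change -1.32 ± 0.20 SE, adjusted p = 0.0305). Ccnd1, the cyclin of entry into S phase, had 171 and 174 CPM with UTP, against 385 and 286 CPM untreated (log2 fold change -0.96 ± 0.12 SE, adjusted p = 0.0267) and was the only one of 28 cell cycle genes called, where the list had a median of 0.02. Its neighbour Oraov1, which overlaps its 3′ side on chromosome 7 on the opposite strand, fell with it (log2 fold change -0.83). Adam8, a cell surface protease of leukocytes, had 134 and 121 CPM with UTP, against 453 and 291 CPM untreated, and Mpeg1, the macrophage perforin, 123 and 121 CPM against 355 and 250 CPM (log2 fold changes -1.54 and -1.31). Sdc3, a heparan sulfate proteoglycan, had 115 and 112 CPM with UTP, against 233 and 181 CPM untreated (-0.86 ± 0.11 SE, adjusted p = 0.0267). Nrp2, the coreceptor for VEGF-C and semaphorins, had 104 and 98.2 CPM with UTP, against 226 and 159 CPM untreated (-0.93 ± 0.14 SE, adjusted p = 0.031), and Tgfbi, a matrix protein induced by TGF-beta, had 40.1 and 38.4 CPM against 108 and 75.1 CPM (-1.22 ± 0.20 SE, adjusted p = 0.0373).

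**Figure D3:**
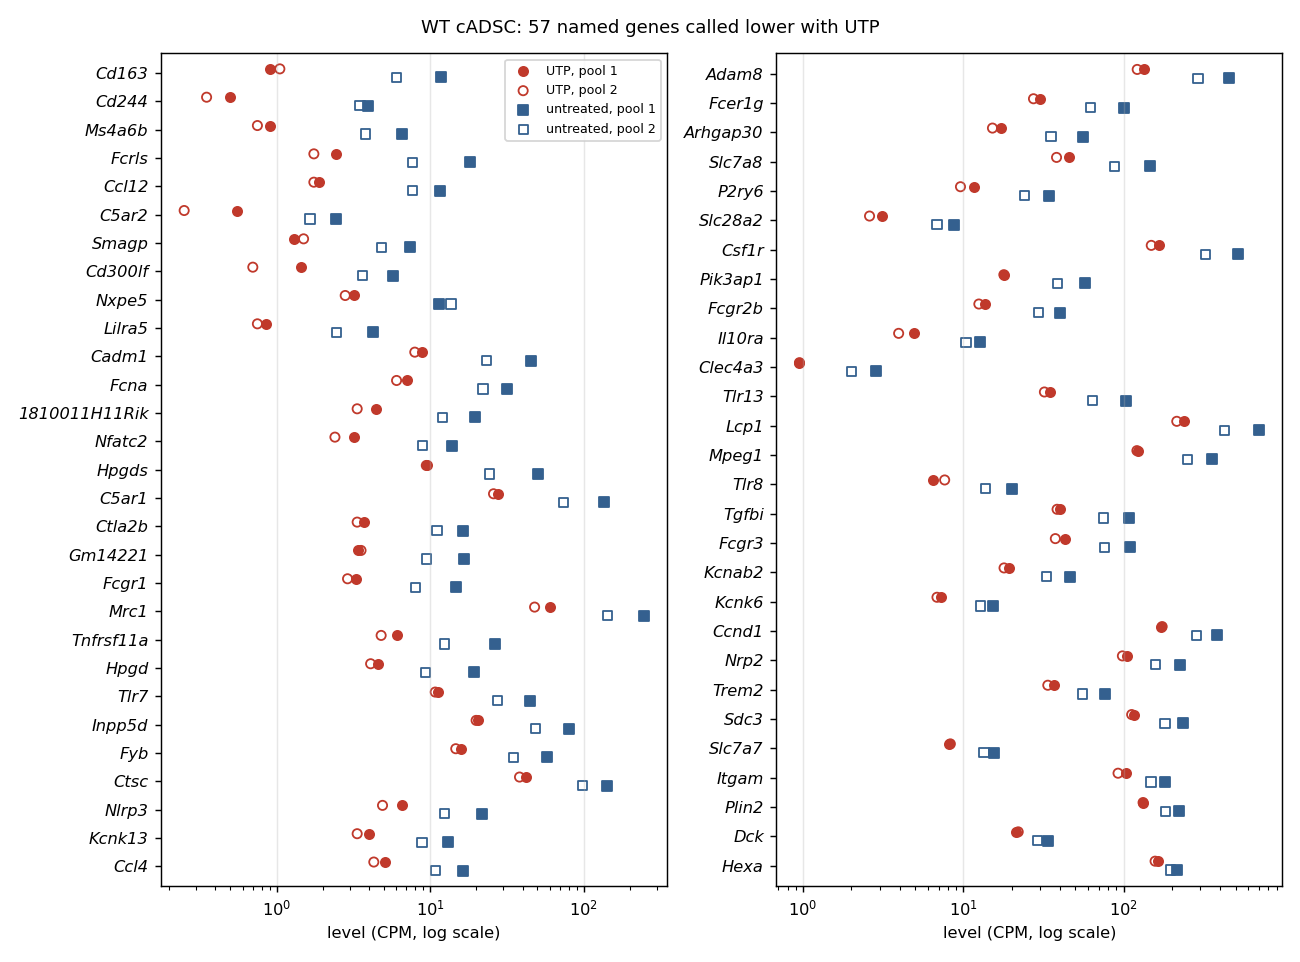
Level in CPM (log x axis) of 57 named genes called lower with UTP in WT cADSC by the naming rule, other than C1qa, C1qb, C1qc and Siglec1, in each UTP pool (circles) and each untreated pool (squares), ordered by log2 fold change down the left and then the right column. Both UTP pools lie left of both untreated pools in each gene, as the naming rule requires, and the first untreated pool (filled square) is the higher one in all of the 57 but Nxpe5.

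Promoters were read for the genes that moved together, as the 300 bases from 250 before to 50 after the start site in RefSeq (GRCm38.p6), which matched 11661 of the genes tested, with 1 window, the first listed, per gene. The PU.1 motif GAGGAAGT, searched on both strands, was in 20 of the 136 promoters of genes that fell (14.7%), in 0 of 18 of genes that rose and in 3.15% of all promoters. The AP-1 motif TGANTCA was in 3 of 18 promoters of genes that rose (16.7%), in 7.35% of genes that fell and in 5.23% of all, and the interferon-stimulated response element in 2 of 18 (11.1%), 5.88% and 3.17%. Shares differed less for the NFAT core TGGAAA (16.7%, 18.4% and 17.1%) and the E-box CACGTG (11.1%, 8.09% and 9.76%), and the NF-kB motif was in 0 called promoters and 0.403% of all. None of these motifs contains another of them, and a match is only a match of letters. The stretches below, written along the strand of the gene, show the PU.1 match (capitals, as GAGGAAGT or its reverse complement ACTTCCTC) in 7 genes that fell, with 30 bases on each side and the first base of the match numbered from the start site (0).
Inpp5d (chr1:87620262-87620329, plus strand, match at -20): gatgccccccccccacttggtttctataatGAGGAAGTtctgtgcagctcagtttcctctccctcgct
Vav1 (chr17:57279059-57279126, plus strand, match at -11): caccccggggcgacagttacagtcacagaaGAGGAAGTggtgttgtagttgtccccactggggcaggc
Pik3cg (chr12:32208624-32208691, minus strand, match at -2): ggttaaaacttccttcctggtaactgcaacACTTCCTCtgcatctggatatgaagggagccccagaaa
Hpgds (chr6:65144742-65144809, minus strand, match at -49): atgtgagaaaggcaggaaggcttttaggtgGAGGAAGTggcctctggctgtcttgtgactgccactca
Cd300lf (chr11:115133955-115134022, minus strand, match at 0): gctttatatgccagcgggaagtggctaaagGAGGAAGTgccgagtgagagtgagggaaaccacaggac
Ctsc (chr7:88277904-88277971, plus strand, match at -151): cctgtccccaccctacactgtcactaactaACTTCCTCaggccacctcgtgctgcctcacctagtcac
C1qc (chr4:136893072-136893139, minus strand, match at -195): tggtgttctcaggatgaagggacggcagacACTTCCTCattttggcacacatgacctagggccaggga

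The AP-1 match, in capitals, is shown for the 3 genes that rose and held it, as it stands at different distances from the start site.
Il1rn (chr2:24336689-24336755, plus strand, match at -141): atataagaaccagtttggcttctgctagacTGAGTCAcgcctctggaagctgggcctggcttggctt
Itgax (chr7:128129464-128129530, plus strand, match at -56): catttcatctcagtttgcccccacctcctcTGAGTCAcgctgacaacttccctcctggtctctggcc
Srpx2 (chrX:133908336-133908402, plus strand, match at -59): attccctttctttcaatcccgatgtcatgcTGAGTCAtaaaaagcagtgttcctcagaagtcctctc

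Some of the genes that fell lie side by side. Within 20 kb of each other were 25 pairs of called genes, of which 16 overlap and 10 of these lie on opposite strands, such as Fcna and Fcnaos or Alox5ap and Gm19719, whose counts may share reads. Of the 25 pairs, 22 moved the same way, among them those of the complement genes C1qa, C1qb and C1qc on chromosome 4 and C5ar1 and C5ar2 on chromosome 7. Since 189 of all 214 called genes fell, most pairs of called genes share a direction wherever they lie. The count is therefore not read as a trait of neighbours. The 3 pairs that moved in opposite directions were Itgam and Itgax, Il1rn with Psd4 (16085 bases apart on chromosome 2, Psd4 at a log2 fold change of -1.20), and Tubb4a with Dennd1c (1551 bases apart on chromosome 17, Dennd1c at -1.42).

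Of 33 genes of the V-ATPase, cathepsins and lysosomal membrane, edgeR called 1 higher (Atp6v0d2) and 2 lower, Ctsc (41.9 and 38.2 CPM with UTP, against 142 and 98.1 CPM untreated; log2 fold change -1.58 ± 0.24 SE) and the hexosaminidase gene Hexa (163 and 157 CPM, against 216 and 197 CPM; -0.37 ± 0.07 SE). Limma called as many, and DESeq2 called 1 higher and 8 lower. At an unadjusted p under 0.05, 18 were lower and 1 higher. Below both untreated pools lay 22 and above both 6, against 25.5% and 26.4% of all genes tested. Ctsb, for example, had 1530 and 1475 CPM with UTP, against 2104 and 1763 CPM untreated (log2 fold change -0.36, adjusted p = 0.111 in edgeR and 0.00628 in DESeq2). Without the first untreated pool the median of the list was -0.07, against -0.17 with it.

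Wnt, acute phase and endothelial genes lay more often above both untreated pools than below, while over all genes tested 26.4% lay above and 25.5% below. Of 23 Wnt family genes tested, 14 lay above both untreated pools and 0 below (median log2 fold change 0.33, and 0.15 without the first untreated pool), and none passed edgeR, with 4 higher at an unadjusted p under 0.05. DESeq2 called 2 of them higher and limma 0. The secreted Wnt antagonist Sfrp1 had 739 and 645 CPM with UTP, against 548 and 497 CPM untreated (log2 fold change 0.41, adjusted p = 0.0606), and Sfrp2 had 111 and 91.9 CPM against 58.7 and 70.1 CPM (0.65, adjusted p = 0.0634). Spp1, which encodes osteopontin, a phosphoprotein of bone and of activated macrophages, had 737 and 680 CPM with UTP, against 384 and 339 CPM untreated (log2 fold change 0.97, adjusted p = 0.0583). It missed the threshold in edgeR and limma (adjusted p = 0.0621) and passed it in DESeq2 (adjusted p = 0.0111) and in edgeR with Xist as a covariate (adjusted p = 0.0349). Among 11 acute phase genes, 8 lay above both untreated pools and 0 below (median 0.44), and 2 were called by edgeR, Saa3 and Il1rn, and 4 by DESeq2. Among 16 endothelial genes 8 lay above both and 1 below (median 0.34, and 0.13 without the first untreated pool), led by Plvap, a protein of fenestrated endothelium, at 6.30 and 5.55 CPM with UTP, against 2.65 and 3.50 CPM untreated (log2 fold change 0.95, adjusted p = 0.0514 in edgeR). None of the 16 was called by edgeR or limma, with 4 higher at an unadjusted p under 0.05, and 1 was called by DESeq2.

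Immediate early genes, which growth factors and calcium induce, gave no call. Of 26 tested, 12 lay above both untreated pools and 3 below, 9 were higher and 0 lower at an unadjusted p under 0.05, and 0 passed the adjusted test in edgeR or limma, and 3 in DESeq2 (median log2 fold change 0.13). Egr1 had 272 and 265 CPM with UTP, against 202 and 218 CPM untreated (log2 fold change 0.36, adjusted p = 0.116), and Junb had 77.1 and 70.9 CPM against 35.4 and 60.6 CPM (0.63, adjusted p = 0.164). Col1a1, a chain of the main fibrillar collagen, was likewise nearer to the second untreated pool, at 4381 and 4185 CPM with UTP, against 3043 and 3866 CPM untreated (log2 fold change 0.31, adjusted p = 0.173). In 24 collagen genes the median was 0.09, and 10 lay above both untreated pools and 7 below. Over all genes tested, the background for each list in this paragraph, 26.4% lay above both and 25.5% below. No call was made among the 16 smooth muscle and myofibroblast genes by edgeR, DESeq2 or limma, with 3 lower at an unadjusted p under 0.05. Of them 11 lay below both untreated pools, but their median of -0.31 was -0.07 without the first untreated pool, where Myh11, the smooth muscle myosin, was highest (155 and 163 CPM with UTP, against 362 and 187 CPM untreated).

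The median in WT of some lists moved with a single pool, among them those of interferon response and epithelial genes. All 27 interferon response genes had a log2 fold change above 0 (median 0.75) and 10 lay above both untreated pools, as did 26.4% of all genes tested. Yet their summed level was high in the second UTP pool only (399 and 954 CPM with UTP, against 394 and 358 CPM untreated). In the libraries labelled P2Y2 KO both UTP pools were higher (1727 and 980 CPM, against 585 and 706 CPM untreated), with a median of 1.35. Ifit1, an interferon-induced RNA-binding protein, had 8.60 and 69.7 CPM with UTP, against 8.65 and 5.95 CPM untreated, and Isg15, a ubiquitin-like modifier, had 10.3 and 54.3 CPM against 6.15 and 6.35 CPM. None was called by edgeR (11 at an unadjusted p under 0.05) or limma and 1 by DESeq2, and the median was 0.05 without that pool. The epithelial list (16 tested) had a median of 0.89 and 0 calls in edgeR, DESeq2 and limma, with 4 higher at an unadjusted p under 0.05. Krt8, a keratin of simple epithelia, had 56.2 and 54.6 CPM with UTP, against 3.0 and 43.3 CPM untreated, and the list's median was 0.24 without the first untreated pool.

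Some lists had a median near that of all genes. The median was -0.02 for 26 genes of the mitochondrial respiratory chain, 0.05 for 25 ribosomal protein genes, 0.10 for 7 MHC class II genes and 0.01 for 25 genes of glycolysis and hypoxia, and 0 of these were called by edgeR (1, 4, 0 and 4 at an unadjusted p under 0.05) or limma, and 1, of glycolysis and hypoxia, by DESeq2. The 4 ribosomal protein genes were all higher, and 11 of the 25 lay above both untreated pools and 1 below, against 26.4% and 25.5% of all genes. Of the 54 lists examined, 26 held a call by edgeR and 28 none, limma called genes in 26 and DESeq2 in 38, 12 of them without a call by edgeR.

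**Figure D4:**
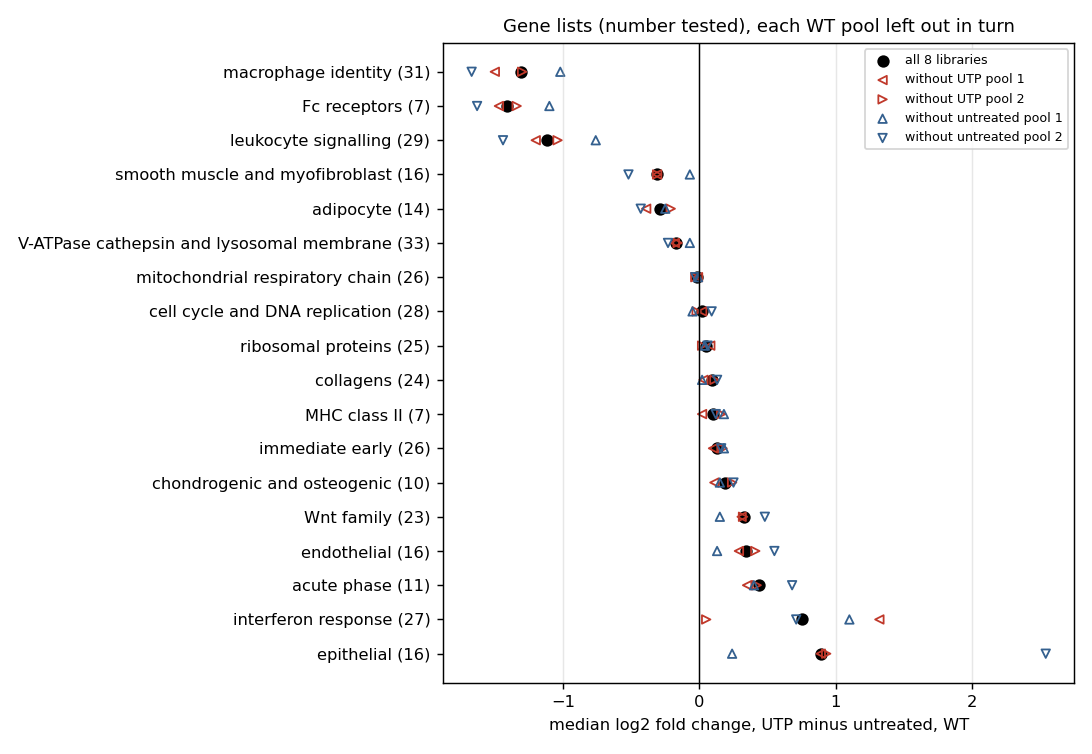
Median log2 fold change with UTP in WT cADSC (x axis) of 18 gene lists, with the number of genes tested in brackets, in the fit of all 8 libraries (black) and without each UTP pool (red) or untreated pool (blue). The macrophage list stays between -1.67 and -1.02, while the interferon list drops to 0.05 without the second UTP pool and the epithelial list to 0.24 without the first untreated pool.

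A 2-fold rule with no test was also computed for each untreated pool. On means of both pools, 169 genes were above 2 and 355 below 0.5, counting genes whose mean passed 0.5 CPM with UTP, without it, or both. Of the 169, 153 were above 2 against the first untreated pool, 87 against the second and 71 against both, and of the 355, 333, 184 and 162 were below 0.5. Of genes of at least 1 CPM that were 2-fold or more apart in all 4 pool ratios, 9 higher and 22 lower did not pass edgeR's test. Akr1c18, the steroid-reducing enzyme that inactivates progesterone, had 36.9 and 35.9 CPM with UTP, against 6.35 and 17.1 CPM untreated (log2 fold change 1.64 ± 0.33 SE, adjusted p = 0.0596). Hsd3b1, an enzyme of steroid synthesis, had 31 and 25 scaled counts with UTP, against 9 and 12 untreated. Igkv4-55, Dact2 and Chrna4 were also named by the rule, with adjusted p of 0.157, 0.0581 and 0.0609. On the lower side, Cd207, the lectin langerin, had 0.4 and 0.35 CPM with UTP, against 5.00 and 1.80 CPM untreated (adjusted p = 0.0956), and P2ry12 had 0.45 and 0.25 CPM against 4.05 and 1.60 CPM. Ms4a14, Sirpb1b, mt-Ts2 and Cd300e followed, with adjusted p of 0.051, 0.0507, 0.0998 and 0.105.

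The same genes were read in the libraries labelled P2Y2 KO, which are not part of the WT contrast but lent their spread to its test, so that this reading is not independent of the calls. There 24 of the 25 genes that rose in WT had a log2 fold change with UTP above 0 and 188 of the 189 that fell had one below 0, against 51.0% and 49.0% of all genes tested. The exceptions were Draxin and Gm15931. The median of the genes that fell was -0.59 in those libraries and -1.33 in WT, and that of the genes that rose was 0.38 and 0.58, where the WT values were the ones used to choose the genes. The 32 macrophage genes summed to 4530 and 4682 CPM with UTP and to 6549 and 5640 CPM untreated in the libraries labelled P2Y2 KO. Clec4n, Ccl5, Il1rn, Atp6v0d2 and Rcan1 were called higher in both by edgeR. Over all genes tested, edgeR called only 6 genes higher with UTP and 0 lower in those libraries. The 189 genes that fell in WT thus held no call there either, and 158 of them were lower at an unadjusted p under 0.05. That bound was passed in that direction by 4.25% of all genes tested. For Rcan1 the log2 fold change was 0.80 in the libraries labelled P2Y2 KO and 0.35 in WT. No gene passed the test of the difference between genotypes in edgeR (0.0%, lowest adjusted p = 0.837), while limma called 0 and DESeq2 6. At an unadjusted p under 0.05 in edgeR were 922 of the 17529 genes tested. Of these, 126 were among the 214 genes called in WT, which were chosen by their change in WT.

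**Figure D5:**
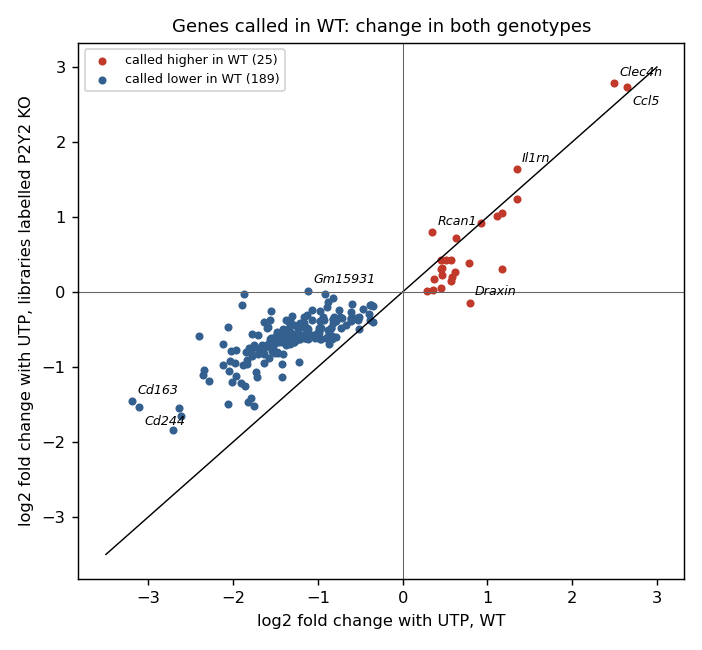
Log2 fold change with UTP in the libraries labelled P2Y2 KO (y axis) against that in WT cADSC (x axis) for the 25 genes called higher and the 189 called lower in WT, with the diagonal of equal change. Nearly all points lie in the quadrants of the same direction, with Draxin and Gm15931 as the exceptions, and most genes that fell lie above the diagonal (medians -0.59 and -1.33).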

How the data were processed

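Reads of 8 mRNA libraries (stranded kit, paired, 100 bases) were trimmed with Trimmomatic, aligned to GRCm38.p4 (mm10) by STAR, and HTSeq gave counts per Ensembl 87 gene, by the authors; tool versions and the strand setting are not given in the sources used here. The deposited values are expected counts, which by their own steps are counts multiplied by 1 factor per library to a common total (20008555 to 20015454 here) and rounded up. The authors' average and ratio columns were not used, and no column belonged to other samples. Here, genes above 0.5 CPM in at least 2 libraries were tested with edgeR 4.0.16 (R 4.3.3; TMM, quasi-likelihood F test, 4 groups in 1 model, Benjamini-Hochberg, threshold 0.05), a step tested on simulated data. A standard error (SE) is the size of the log2 fold change divided by the root of its F value. The smallest p that an exact permutation of 2 pools against 2 allows is 0.333. Positions are from GENCODE M21.

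Genes were named by a rule: adjusted p under 0.05, at least 1 CPM in 1 WT condition and no overlap of pools, then every gene that rose, the 15 largest falls outside the macrophage list and the study's table, up to 4 per list and the 10 with most reads; others were chosen after their values were seen, and some genes are not reported here. The members and the 54 lists were chosen with earlier results of these data known. Alternatives were DESeq2 1.42.0, limma 3.58.1 (1 or 0.5 CPM added), library totals, other minimums, scaling undone, Xist as a covariate, a 1.5-fold bound, the replicate block, WT libraries alone and each library left out.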

Additional observations from a re-analysis of the deposited data

How the results depend on the processing

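The 214 calls became 1083 with no minimum level (1077 of them on 1 side of both untreated pools, 124 at least 2-fold in all 4 pool ratios, and 28 calls of a difference between genotypes), 558 with DESeq2 (and 6 for the difference), 8 against a 1.5-fold bound and 2 with the WT libraries alone (2 on 1 side of both untreated pools and 2 at least 2-fold). They were 169 to 252 with library totals, a minimum of 2 CPM, the scaling undone, limma or Xist as a covariate. Leaving out 1 library gave 1 to 2406 calls, 1 to 2406 of them on 1 side of both untreated pools, 1 to 512 at least 2-fold, and 0 to 273 for the difference between genotypes; the highest value of each came without the second untreated WT pool, and the first untreated WT pool was then the only reference. A bound of 1.5-fold in place of 2-fold was passed in all 4 ratios by 162 called genes. The 524 genes of the fold rule became 7246 with no minimum, 349 with a mean above 0.5 CPM in both conditions, 302 with all 4 WT libraries above it, 232 with 1 CPM added, and 364 to 1033 with 1 WT pool left out. With a replicate block there were 274 calls (30 higher and 244 lower), 193 shared with the 214; the shared replicate number was not taken as a pairing, since deviations of same-numbered pools correlated at -0.211 to 0.095 between groups and at 0.451 only between treated and untreated pools labelled P2Y2 KO. No named gene changed direction under any of these. For the called genes, whose pools do not overlap, leaving out 1 WT pool could hardly change it. Of 113 named genes that were called, 108 stayed called with DESeq2, 87 with Xist as a covariate and 10 when untreated pool 1 of the P2Y2 KO label was left out; the cause was not tested.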

Other observations

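Among the genes called lower that stand in none of the lists were some of sphingolipid and sterol ester turnover, chosen after their values were seen, with no count of such genes that were not called. Galc, the galactosylceramidase of lysosomes, had 27.3 and 27.4 CPM with UTP, against 41.4 and 36.9 CPM untreated (log2 fold change -0.51 ± 0.09 SE, edgeR adjusted p = 0.04). Smpdl3a, an acid sphingomyelinase-like enzyme that hydrolyses nucleotides, had 43.6 and 40.2 CPM with UTP, against 86.3 and 62.2 CPM untreated (-0.83 ± 0.14 SE, adjusted p = 0.0411). Nceh1, a cholesterol ester hydrolase of macrophages, and St3gal5, the synthase of ganglioside GM3, fell by 0.67 and 0.55 on the log2 scale (adjusted p = 0.044 and 0.0487). Itga6, the laminin-binding integrin chain, had 35.0 and 32.0 CPM with UTP, against 63.1 and 56.7 CPM untreated (-0.84 ± 0.11 SE, adjusted p = 0.0267), and of these genes its log2 fold change moved least without the first untreated pool (-0.75). Irf5, a transcription factor of macrophages, also fell (54.3 and 55.1 CPM with UTP, against 80.0 and 71.3 CPM untreated; log2 fold change -0.47 ± 0.07 SE, adjusted p = 0.0283).

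Matrix protease genes gave no single direction. Of 29 tested, 10 were higher and 2 lower at an unadjusted p under 0.05, and edgeR and limma called only Adam8, which fell, while DESeq2 called 2 higher and 2 lower. Mmp3, the stromelysin of fibroblasts, had 82.8 and 74.3 CPM with UTP, against 25.5 and 60.1 CPM untreated, and its log2 fold change of 0.88 was 0.40 without the first untreated pool (adjusted p = 0.201 with it). Plau, the urokinase gene, had 172 and 167 CPM with UTP, against 320 and 207 CPM untreated (adjusted p = 0.137 in edgeR and 0.00109 in DESeq2).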
